A study of Mus musculus with 6 samples.

Results

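The integrated stress response genes examined here were Atf3, Atf4, Atf5, Ddit3, Ppp1r15a, Ddit4, Asns, Trib3 and Sesn2. They were taken by gene symbol from the array's probe annotation, without regard to their values. Of these 9 genes, 8 had a probe, 1 each, and every one of these 8 probes was measured on all 6 arrays. No probe carried the symbol Trib3, so that gene, which encodes a pseudokinase inhibitor of ATF4, was not analysed here. The annotation named 10698 distinct genes in all.

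The integrated stress response is the pathway by which a cell answers unfolded protein in the endoplasmic reticulum, amino acid shortage, double-stranded RNA or haem shortage. A separate kinase senses each stress and phosphorylates the translation factor eIF2α, which slows most protein synthesis while the mRNA of the transcription factor ATF4 is translated more. ATF4 then switches on genes for amino acid supply and further regulators, and the product of Ppp1r15a, called GADD34, brings a phosphatase to eIF2α and so restores translation. Because ATF4 is controlled largely at translation, its mRNA level does not by itself report the activity of the pathway.

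The cells were RAW 264.7, an established mouse macrophage line that grew from a virus-induced tumour and is written RAW 264.4 in part of the labels. Treated cells received bacterial lipopolysaccharide (LPS) at 100 ng/ml together with LPS-binding protein at 100 pM and were cultured for 4 h, and the untreated cells were cultured for 4 h as well. No genotype was altered in either group, as far as the labels say. Treated and untreated total RNA shared each of the 6 two-colour arrays. The treated RNA was in Cy5 on 3 arrays and in Cy3 on the other 3, numbered as sets 1 to 3 in each dye orientation. Whether the sets came from separate cultures is not stated in the labels. The p-values therefore rest only on the spread between these numbered sets, which may be technical. An exact 0 counts as not measured, which left 14195 to 15027 of 16281 probes with a value on each array. Precision is limited by the number of arrays. The table holds ratios without intensities, so it shows no level of any gene and cannot show whether the cells expressed their defining markers. Of 8 macrophage markers, 7 were measured, with changes from -0.30 (Csf1r) to 1.10 (Adgre1) and a median of 0.50. Of these, limma called 4 higher (Adgre1, Mpeg1, Lyz2 and Spi1) and Csf1r lower, 71.4% in all, against 29.0% of all features. Fibroblast markers, 5 of 5 measured, lay between 0.020 and 0.12 with 0 called by limma, and of 5 measured lymphocyte markers Cd4 was called, at 0.23. The part of such markers in the results was not tested.

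Values below are log2 ratios, with treated RNA divided by untreated RNA. A set value is the mean of the 2 arrays of a set, with the sign turned where treated RNA was in Cy3, and a change is the mean ± SD of the n = 3 set values. Since the labels name Cy5 as the test channel, deposited ratios were taken to be Cy5 over Cy3, and the opposite reading would turn every sign. A gene is called where the limma test of its change against 0 gave an adjusted p below 0.05. The adjustment is that of Benjamini-Hochberg over all 11364 tested features. limma draws each gene's variance mostly from the other features, so SE, interval and p do not follow from the printed SD alone.

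After LPS with LPS-binding protein, 5 of the 8 measured genes were called higher, 1 was called lower and 2 were not called. Atf3, a bZIP transcription factor that dampens inflammatory gene expression, rose 3.30-fold, and Ppp1r15a rose 1.91-fold. The transcription factor genes Atf5, Atf4 and Ddit3 (CHOP) rose by at most 1.34-fold. Ddit4 (REDD1), an inhibitor of the growth kinase complex mTORC1, was 1.53-fold lower, whereas neither the asparagine synthetase gene Asns nor Sesn2, an amino acid sensor upstream of the same complex, passed the test. Across all features 14.0% were called higher and 15.0% lower, 29.0% in all, so calls were common on these arrays. The median change of the 8 genes was 0.22, against 0.00079 over all features.

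The promoters of Atf3, Ppp1r15a and Asns are shown because they hold letters that bZIP factors are known to bind. Sequences are RefSeq's (GRCm38.p6), matched by symbol for all 9 genes, and each line gives the 120 bases just before the annotated start, 5′ to 3′ on the gene's strand, with motif matches in capitals. The windows are chr1:191183334-191183453 for Atf3, chr7:45526269-45526388 for Ppp1r15a and chr6:7693210-7693329 for Asns, all on the minus strand.
Atf3: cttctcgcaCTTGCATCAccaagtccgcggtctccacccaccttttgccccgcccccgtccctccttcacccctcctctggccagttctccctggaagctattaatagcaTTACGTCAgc
Ppp1r15a: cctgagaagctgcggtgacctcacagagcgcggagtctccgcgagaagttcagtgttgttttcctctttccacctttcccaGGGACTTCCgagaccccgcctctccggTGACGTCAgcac
Asns: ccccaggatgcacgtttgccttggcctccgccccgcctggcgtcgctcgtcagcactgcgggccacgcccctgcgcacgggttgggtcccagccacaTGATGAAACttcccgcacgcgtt

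Searches covered 250 bases before the start on both strands. The letters TGATGNAAN stand for the C/EBP-ATF response element, through which ATF4 is known to act. They were found in Atf3, beginning 111 bases before the start and read on the opposite strand, and in Asns, beginning 23 bases before it, and in 3.44% of all 32851 promoters. The cAMP response element TGACGTCA, a palindrome bound by ATF and CREB dimers, was found 12 bases before the start of Ppp1r15a and in 1.55% of promoters. Its variant TGACGTAA was found 10 bases before the start of Atf3, on the opposite strand, and in 0.447% of promoters. The κB-type letters GGGANTTCC lay 39 bases before the start of Ppp1r15a and in 1.43% of promoters. No match overlapped another, and the remaining 6 genes, Trib3 among them, had 0 matches in this window. Among tested genes with each set of letters, the share called higher was 15.6% for TGATGNAAN (32 of 205), 17.0% for TGACGTCA (30 of 176), 26.8% for TGACGTAA (15 of 56) and 26.5% for GGGANTTCC (39 of 147), beside 14.0% over all features. The share called lower was 13.7%, 14.8%, 10.7% and 12.9% in the same order, beside 15.0% over all features. The motif counts include the stress response genes that hold the letters. The shares over all features are not limited to genes with a promoter sequence and include 1790 probes without a single gene symbol. The matches describe the sequence and do not show a site in use.

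Atf3 had the largest change of the group. Its log2 ratios were 1.90, 1.72 and 1.79 on the arrays of sets 1 to 3 with treated RNA in Cy5, and 1.62, 1.58 and 1.72 on those with treated RNA in Cy3. The highest of the other genes' 6 array values was 1.13, below the lowest of Atf3. The change was 1.72 ± 0.063 (SE 0.045, 95% confidence interval 1.62 to 1.83, limma adjusted p = 3.36e-07). By change, Atf3 ranked 97 of 11364 from the top, and it also passed a test against a 1.5-fold change (limma treat adjusted p = 2.70e-06), as 2.60% of features did. The 2 named genes with the most similar 6 array values were Tnfaip2, at a Euclidean distance of 0.14 log2 units, and Ehd1, at 0.37, with changes of 1.70 ± 0.067 and 1.80 ± 0.099.

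Ppp1r15a, which closes the loop by returning eIF2α to its unphosphorylated form, followed. The arrays with treated RNA in Cy5 gave 1.13, 0.97 and 0.98, and those with treated RNA in Cy3 gave 0.79, 0.83 and 0.92. All 6 values were positive, and each Cy5 value lay above each Cy3 value. The change was 0.94 ± 0.035 (SE 0.042, 95% confidence interval 0.84 to 1.04, limma adjusted p = 4.96e-06), rank 236 from the top. Besides Atf3 it was the only 1 of the 8 genes past the test against a 1.5-fold change (limma treat adjusted p = 0.0016). Its nearest genes were 6330407A03Rik (distance 0.24, change 0.96 ± 0.053) and Cd52 (distance 0.24, change 0.94 ± 0.015), the latter a surface glycoprotein gene of leukocytes.

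**Figure D1:**
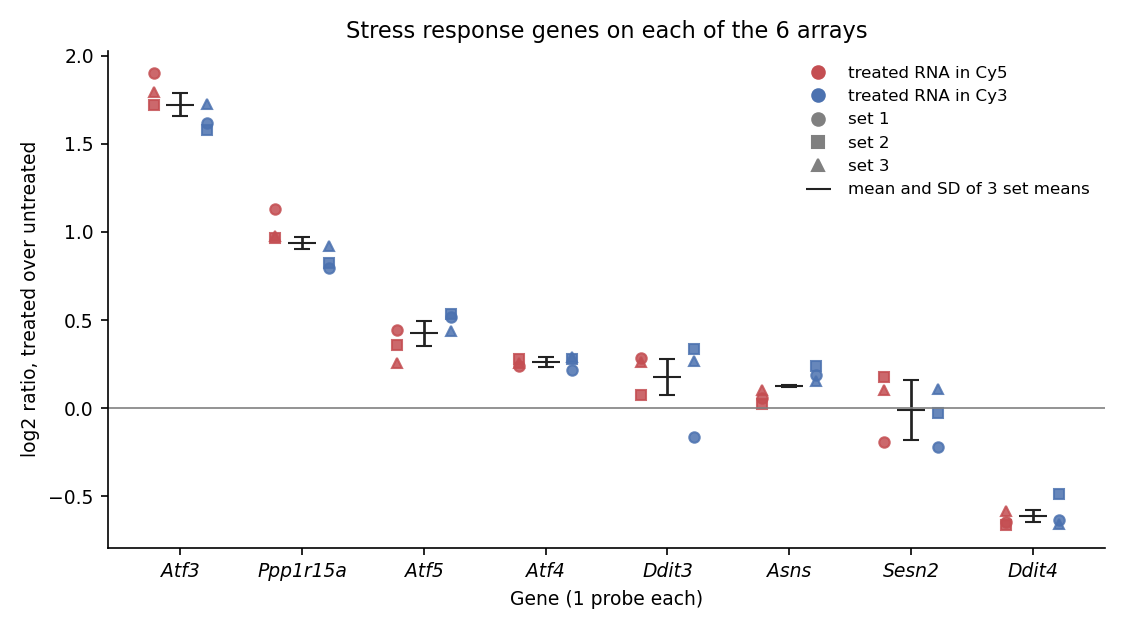
Log2 ratios of treated over untreated RNA (vertical axis) for the 8 measured stress response genes (horizontal axis, ordered by change), 1 point per array, coloured by dye orientation and shaped by set; black bars are the mean ± SD of 3 set values. Atf3 lies between 1.58 and 1.90 on every array and Ddit4 between -0.66 and -0.49, whereas Ddit3 and Sesn2 have values on both sides of 0.

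The transcription factors at the centre of the pathway changed by less. Atf5, a relative of Atf4 that is likewise controlled at translation, was at 0.44, 0.36 and 0.26 with treated RNA in Cy5 and at 0.52, 0.54 and 0.44 with it in Cy3. All 6 arrays were positive, and the change was 0.42 ± 0.069 (SE 0.046, limma adjusted p = 4.19e-04), a 1.34-fold rise at rank 578. Its nearest genes were Abi1 (distance 0.11, change 0.44 ± 0.039) and the innate immune kinase gene Tbk1 (distance 0.11, change 0.44 ± 0.10).

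Atf4, the effector of the pathway, had the most even values of the factors, at 0.24, 0.28 and 0.26 with treated RNA in Cy5 and 0.22, 0.28 and 0.29 with it in Cy3. The Cy5 values lay within the range of the Cy3 values. The change was 0.26 ± 0.029 (SE 0.042, 95% confidence interval 0.16 to 0.36, limma adjusted p = 0.0029), a 1.20-fold rise at rank 948. Sra1 (distance 0.089, change 0.25 ± 0.040) and Cd164 (distance 0.11, change 0.24 ± 0.056) were nearest to it.

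Ddit3, the death-promoting factor CHOP that ATF4 induces under lasting stress, was called with 1 array of the opposite sign. With treated RNA in Cy5 it was at 0.29, 0.076 and 0.26, and with treated RNA in Cy3 at -0.16, 0.33 and 0.27. That array was the one of set 1 with treated RNA in Cy3, and the set 1 value was 0.062. The change was 0.18 ± 0.10 (SE 0.052, 95% confidence interval 0.055 to 0.30, limma adjusted p = 0.039), a 1.13-fold rise. The call ended in 12 of 17 alternatives, among them the fit without set 2 (0.16, limma adjusted p = 0.087), without set 3 (0.13, limma adjusted p = 0.15) and over 6 arrays without set numbers (limma adjusted p = 0.13). Its nearest genes were Elk4 (distance 0.17, change 0.15 ± 0.045) and Tchhl1 (distance 0.20, change 0.15 ± 0.031).

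**Figure D2:**
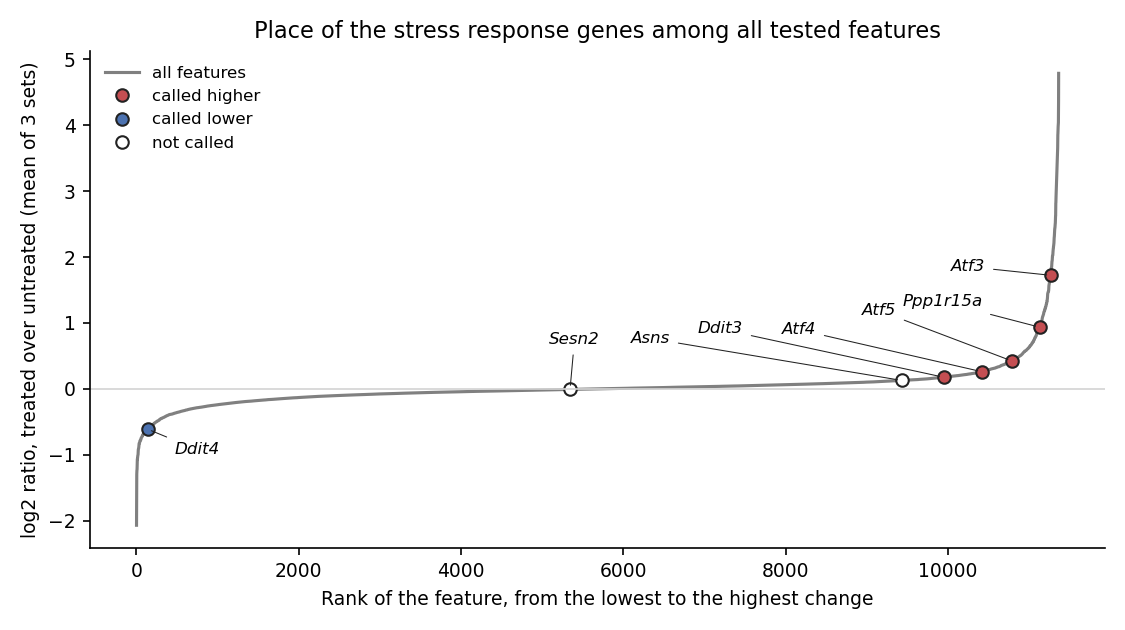
Change of every tested feature (vertical axis, log2 ratio of treated over untreated RNA, mean of 3 sets) against its rank from the lowest to the highest (horizontal axis), with the 8 measured stress response genes marked by their call. Atf3 stands at rank 97 from the top and Ddit4 at rank 137 from the bottom, while Sesn2 lies close to the middle.

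The genes that act downstream, on amino acid supply and on mTORC1, did not move together. Ddit4 was at -0.64, -0.66 and -0.58 with treated RNA in Cy5 and at -0.63, -0.49 and -0.66 with it in Cy3. It was negative on all 6 arrays and overlapped with none of the other 7 genes. The change was -0.61 ± 0.032 (SE 0.042, 95% confidence interval -0.71 to -0.51, limma adjusted p = 4.24e-05), rank 137 of 11364 from the bottom. It did not pass the test against a 1.5-fold change, although the fitted fall was 1.53-fold. Nectin3, an adhesion molecule gene, was nearest at a distance of 0.083 (change -0.61 ± 0.027), followed by B4gat1 at 0.097 (change -0.62 ± 0.032).

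Asns, a textbook ATF4 target that makes asparagine, was at 0.058, 0.025 and 0.10 with treated RNA in Cy5 and at 0.19, 0.24 and 0.16 with it in Cy3. All 6 values were positive and the 2 orientations did not overlap. The change of 0.13 ± 0.0053 did not pass (SE 0.041, 95% confidence interval 0.032 to 0.22, limma adjusted p = 0.054). It did pass in 4 of 18 alternatives, among them the fit over 6 arrays without set numbers (limma adjusted p = 0.029).

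Sesn2, whose product is a leucine sensor that restrains mTORC1, was at -0.19, 0.18 and 0.10 with treated RNA in Cy5 and at -0.22, -0.028 and 0.11 with it in Cy3. Both set 1 arrays were negative, both set 3 arrays positive, and the set 2 arrays were split. The mean of -0.0081 ± 0.17 was not called (95% confidence interval -0.16 to 0.15, limma adjusted p = 0.95), so a change of up to about that size in either direction lies within its interval. Without set 1 the mean was 0.090 (limma adjusted p = 0.39).

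From the highest to the lowest change the order was Atf3, Ppp1r15a, Atf5, Atf4, Ddit3, Asns, Sesn2 and Ddit4. The set values of Atf4 and Ddit3 overlapped, as did those of Ddit3 and Asns, and these neighbours differed by 0.084 ± 0.080 and 0.049 ± 0.10, set by set. Asns and Sesn2 did not overlap, but their difference of 0.14 ± 0.17 was smaller than its own spread. The steps from Atf3 to Ppp1r15a (0.79 ± 0.029), Ppp1r15a to Atf5 (0.51 ± 0.080), Atf5 to Atf4 (0.16 ± 0.088) and Sesn2 to Ddit4 (0.60 ± 0.15) were larger than theirs. Each gene is seen by a different probe, so the order is one of ratios and says nothing of transcript amounts.

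Of the 8 genes, 6 had the same sign on all 6 arrays, against 25.7% of all features. A dye effect, tested by limma on the set means with the treatment cancelled, was called for 0 of the 8, with 0 at an unadjusted p below 0.05. Over all features it was called for 0% (2630 of 11364 at an unadjusted p below 0.05). Over 6 arrays without set numbers, 4.88% of features were called and again 0 of the 8. The widest gap between orientations was that of Ppp1r15a, at 1.03 ± 0.092 with treated RNA in Cy5 and 0.85 ± 0.065 with it in Cy3 (SD, n = 3 arrays each).

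**Figure D3:**
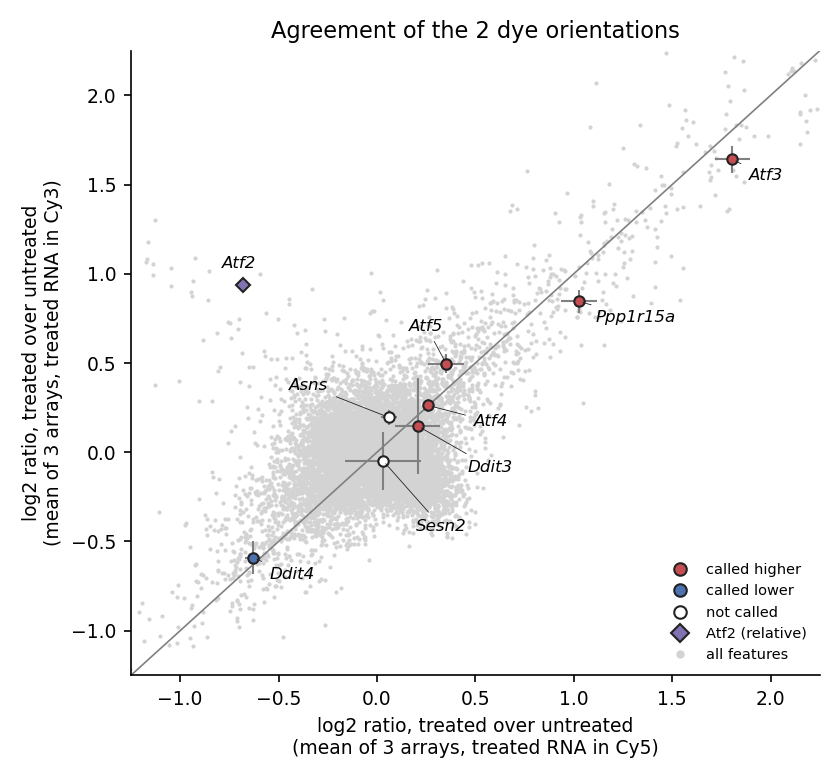
Mean log2 ratio of treated over untreated RNA on the 3 arrays with treated RNA in Cy5 (horizontal axis) against that on the 3 arrays with it in Cy3 (vertical axis), grey for all features within the axis range, large circles for the 8 stress response genes with SD bars, and the line of equal values. The orientation means of the 8 genes are at most 0.181 apart (Ppp1r15a), whereas the related gene Atf2, at -0.68 and 0.94, lies far from the line.

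The other genes of the pathway were counted from 6 lists. Of 85 tested genes, 15 were called higher, 15 lower and 55 were not called, which is 35.3% called against 29.0% over all features, and their median change was 0.013. Only 4 of them rose at least 2-fold, and 0 fell that far.

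Upstream, the stress kinases and the eIF2 machinery had 1 gene higher and 3 lower of 12 tested. The share called was 33.3%, against 29.0% over all features. Eif2ak2 (PKR), the kinase that senses double-stranded RNA and is itself an interferon-induced gene, rose by 1.70 ± 0.19 (limma adjusted p = 2.90e-06). Eif2ak3 (PERK), the kinase of endoplasmic reticulum stress, was at -0.095 ± 0.11 and was not called (limma adjusted p = 0.24). Eif2ak4 (GCN2), the sensor of uncharged tRNA, was called lower at -0.18 ± 0.065 (limma adjusted p = 0.020), a mean of -0.38 with treated RNA in Cy5 and 0.0087 with it in Cy3. The haem-regulated kinase gene Eif2ak1 had no probe. The phosphatase catalytic subunit gene Ppp1cc (-0.22 ± 0.014) and Eif2b4 (-0.19 ± 0.044), a subunit of the exchange factor that phosphorylated eIF2 blocks, were lower. Eif2s3x (0.14 ± 0.21) and Impact (0.13 ± 0.067) were not called. Without set 3 the call of Eif2ak4 ended (-0.15, limma adjusted p = 0.074), that of Eif2b4 ended without set 2 (-0.17, limma adjusted p = 0.078) or set 3 (-0.19, limma adjusted p = 0.051), and Eif2s3x passed without set 3 (0.24, limma adjusted p = 0.042).

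Among genes of amino acid transport and synthesis, 2 were higher and 4 lower of 15 tested, with a median of 0.064. The share called was 40%, against 29.0% over all features. Slc7a11, the cystine importer that feeds glutathione synthesis, rose by 1.11 ± 0.11 (limma adjusted p = 6.04e-06). Its partner chain Slc3a2 (named after its value was seen) was called higher at 0.16 ± 0.034. The mean of Slc3a2 was 0.33 with treated RNA in Cy5 and -0.0048 with it in Cy3. The glycine transporter gene Slc6a9 was at -0.37 ± 0.069, the neutral amino acid transporter gene Slc1a4 at -0.28 ± 0.084 and the proline synthesis gene Aldh18a1 at -0.19 ± 0.032, all called lower. Slc1a4 was positive on 1 of 6 arrays, with a mean of -0.43 with treated RNA in Cy5 and -0.13 with it in Cy3. Bcat1 (0.16 ± 0.11) and the serine synthesis gene Psph (-0.14 ± 0.080) were not called. Cytosolic aminoacyl-tRNA synthetases, which charge tRNA and of which several are ATF4 targets, had 2 higher and 0 lower of 11 tested, a share of 18.2% called. These were Rars (0.31 ± 0.14) and Nars (0.18 ± 0.089), while Lars (0.095 ± 0.13) and Cars (0.086 ± 0.034) were not called. Without set 1, 3 in place of 6 of the amino acid genes and 1 in place of 2 of the synthetase genes were called by limma, and without set 2 again 1 synthetase gene. The calls that ended were those of Aldh18a1 without set 1 (-0.17), Slc3a2 without set 1 (0.17) or set 2 (0.15), the aspartate aminotransferase gene Got1 without set 1 (-0.12) or set 2 (-0.14) and Nars without set 1 (0.14) or set 2 (0.17), and Bcat1 passed without set 3 (0.23). Got1, at -0.15 ± 0.063 with all sets, was named after its value was seen.

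**Figure D4:**
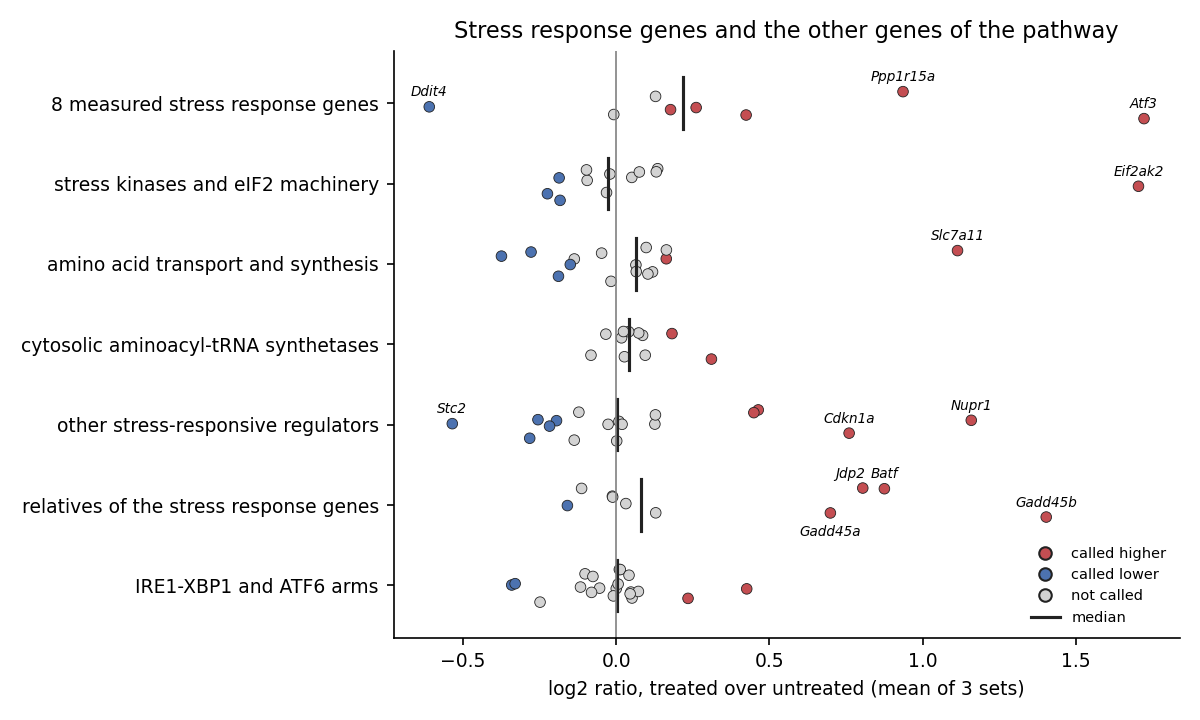
Change (horizontal axis, log2 ratio of treated over untreated RNA, mean of 3 sets) of the 8 measured stress response genes and of the tested genes of 6 pathway lists (rows), 1 point per gene coloured by call, with the median of each row as a bar. Genes beyond 0.5 in either direction are named, and the medians of the 6 lists lie between -0.026 and 0.080.

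Other stress-responsive regulators had 4 genes higher and 5 lower of 17 tested, 52.9% called against 29.0% over all features, with a median of 0.0014. The chromatin-associated stress gene Nupr1 rose by 1.16 ± 0.12 (limma adjusted p = 6.04e-06), the cell cycle inhibitor gene Cdkn1a (p21) by 0.76 ± 0.12 and Herpud1, of endoplasmic reticulum-associated degradation, by 0.46 ± 0.085. The secreted glycoprotein gene Stc2 was lower at -0.54 ± 0.030 (limma adjusted p = 7.99e-05). Eif4ebp1 (-0.14 ± 0.043), a translation repressor gene, and Chac1 (0.13 ± 0.13), the glutathione-degrading enzyme gene that is a textbook readout of ATF4 and CHOP, were not called. The call of Fgf21 (named after its value was seen), a stress-induced hormone gene, ended without set 2 (-0.18, limma adjusted p = 0.056).

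Relatives of the 9 genes by family or name had 4 higher and 1 lower of 10 tested, 50% called against 29.0% over all features. Gadd45b rose by 1.40 ± 0.048 (limma adjusted p = 6.89e-07) and Gadd45a by 0.70 ± 0.19. Both share with GADD34 a name given for induction by growth arrest and DNA damage. Gadd45a was positive on 5 of 6 arrays, with a mean of 0.48 with treated RNA in Cy5 and 0.92 with it in Cy3. The bZIP factor genes Batf and Jdp2 rose by 0.88 ± 0.19 and 0.80 ± 0.32 (limma adjusted p = 9.97e-05 and 0.0010), the latter encoding a close relative of ATF3. The gene called lower was Creb1 (named after its value was seen), and its call ended with any 1 set left out, at -0.15, -0.16 and -0.16 without sets 1 to 3 (limma adjusted p = 0.12, 0.078 and 0.059). Gadd45g (-0.11 ± 0.061) and Atf2 (0.13 ± 0.14) were not called. The other branches of the unfolded protein response, through IRE1 and XBP1 and through ATF6, had 2 higher and 2 lower of 20 tested, 20.0% called, with a median of 0.0030. Syvn1, a ubiquitin ligase gene of the endoplasmic reticulum, rose by 0.43 ± 0.13 and the chaperone gene Hyou1 by 0.23 ± 0.15, whereas Xbp1 was at -0.34 ± 0.067 and Sdf2l1 at -0.33 ± 0.073, both called lower. Pdia3 (-0.25 ± 0.39) and Manf (-0.12 ± 0.074) were not called. The call of Hyou1 ended without set 1 (0.22, limma adjusted p = 0.056) or set 2 (0.17, limma adjusted p = 0.068), and Dnajb9 (named after its value was seen) passed without set 3 (0.17, limma adjusted p = 0.048). Pdia3 passed without set 2 (-0.31, limma adjusted p = 0.0027), although the 2 remaining set values differed in sign, at -0.69 (set 1) and 0.067 (set 3). In that fit limma gave 67.3 prior degrees of freedom, against 5.24 with all sets. In both fits each gene's variance came mostly from the other genes, and more so without set 2.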

How the data were processed

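The table as deposited gives a log2 ratio for each probe on each array, and each array's median is 0 with exact zeros included. Over measured probes alone, the array medians ran from 0.0017 to 0.020. What scanner, background correction, normalization or genome build was used is not given in the sources used here, and any compression of dim spots is unknown. Base 2 was inferred because the largest value is log2 of a ratio of 100. As deposited, arrays of opposite dye orientation correlated between -0.78 and -0.40 across features.

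Exact zeros were taken as missing. The 13415 probes measured on all 6 arrays were kept, and probes of 1 gene were averaged (9574 genes, with 1790 other probes kept single). The platform's annotation gave 13738 probes 1 gene symbol, 52 several and 2491 none, and 13694 matched the GRCm38.p6 gene table by Entrez Gene ID. Orientations were averaged within each set and the 3 set values tested with limma 3.58.1 (lmFit, eBayes, two-sided, R 4.3.3) across all genes. The fit was tested on simulated set values drawn independently of each other. This cannot show how averaging arrays within sets affects the calls, and recovery of 1.5-fold changes was not required. The genes, lists, motifs and tests were chosen with earlier results of these data known.

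The naming rule took all 9 genes, the eIF2 kinases, from each list up to 4 called and 2 uncalled genes of largest absolute change, and for each called stress response gene the 2 nearest genes by Euclidean distance over 6 arrays. Alternatives covered normalization, exact zeros, filters, single probes, set numbers, each orientation, each set left out, robust variances and thresholds. The dye test without set numbers was added after the data were seen.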

Additional observations from a re-analysis of the deposited data

Results flagged for a closer look

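For 13 of the 85 tested pathway genes (15.3%), and for 0 of the 8 stress response genes, every array of one dye orientation had the opposite sign to every array of the other. This was so for 1473 of all 11364 features (13%). Of the 35 pathway genes chosen by the rule for named genes, 3 were among them. Atf2, a bZIP factor gene of the CREB family, had a mean of -0.681 ± 0.60 (SD, n = 3 arrays) with treated RNA in Cy5 and 0.939 ± 0.35 with it in Cy3. Its values ran from -1.30 to -0.093 in the first orientation and from 0.65 to 1.32 in the other. Gadd45g was at -0.395 ± 0.070 and 0.169 ± 0.11, and the cysteinyl-tRNA synthetase gene Cars at -0.101 ± 0.065 and 0.273 ± 0.027. limma's test of the dye effect on set means called none of these 3 genes (adjusted p = 0.17 for each, with unadjusted p = 0.016 for Atf2, 0.0029 for Gadd45g and 0.0065 for Cars). Over 6 arrays without set numbers, an alternative chosen after seeing the data, the limma adjusted p was 0.045 (Atf2), 0.033 (Gadd45g) and 0.042 (Cars). The cause was not tested.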

How the results depend on the processing

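Atf3 and Ppp1r15a kept their direction and their call in all 18 alternatives, from 1.64 to 1.80 and from 0.85 to 1.03. Atf5 (0.35 to 0.50), Atf4 (0.25 to 0.28) and Ddit4 (-0.63 to -0.59) did so in 17 of 18, the exception being the test against a 1.5-fold change, in which 2 of the stress response genes were called higher and 0 lower. Ddit3 lost its call in 12 of 17, and the filter on equal signs left it and Sesn2 out. Sesn2, never called, turned to 0.031 with treated RNA in Cy5 alone and ran from -0.065 to 0.090 with a set left out. With a set left out, 4 to 5 of the 8 measured stress response genes were called higher and 1 lower. In the same fits, 1271 to 1479 of all 11364 features were called higher and 1347 to 1464 lower.

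With ratios turned to treated over untreated, same-numbered arrays deviated in opposite directions in sets 1 and 2. Here r was -0.48, -0.51 and -0.020 for sets 1 to 3 over 11364 features. As deposited, the arrays of sets 1 and 2 thus deviated in the same direction. Between set 1 and set 2 of opposite orientation r was 0.53 and 0.45, partly because deviations within an orientation sum to 0. Whether a shared set number marks the same RNA pair is not shown. Averaging arrays that deviate in opposite directions narrows the SD of set values. For Asns it was 0.0053, against 0.038 over the Cy5 and 0.043 over the Cy3 arrays. With no replicate block, 3147 features were called, 3412 with the replicate block as a random effect and 2438 with it as a fixed effect, against 3294. The count of stress response genes higher was 5, 5 and 4, with Asns called in place of Ddit3 in the first 2 of these fits.

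Over all features, 1825 were called with treated RNA in Cy5 alone (931 higher, 894 lower), 1079 were lower with it in Cy3 alone, 2127 passed at 0.01 (1063 lower) and 296 passed the 1.5-fold test (261 higher, 35 lower). Called genes per list moved as follows. For amino acid genes, 6 became 2 with the fixed block, 3 on Cy5 and 1 on Cy3 arrays, 3 at 0.01, 1 in the 1.5-fold test, and 3 to 7 with a set left out (3 without set 1). For tRNA synthetases, 2 became 0 with zeros kept, 0 on Cy5 arrays, 1 at 0.01, 0 in the 1.5-fold test, and 1 to 2 with a set left out (1 without set 1 or set 2). For the IRE1 and ATF6 arms, 4 became 2 with zeros kept, 2 on Cy5 arrays and 0 in the 1.5-fold test. For the relatives, 5 became 3 on Cy5 arrays and 1 in the 1.5-fold test, for the kinases and eIF2 machinery 4 became 2 at 0.01 and 1 in the 1.5-fold test, and for the other regulators 9 became 1 in the 1.5-fold test.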
